A study of Mus musculus with 8 samples.

Results

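DNA methylation at the genes of 5 transcription factors of hepatocyte identity, Hnf4a, Foxa1, Foxa2, Prox1 and Cebpb, was compared between mouse livers with nonalcoholic steatohepatitis (NASH) and livers of mice on a normal diet (ND). The members were taken by name, and they were chosen with earlier results of these data known. Their values are the methylation levels of every listed CpG cytosine inside the RefSeq span of each gene (GRCm38.p6, the assembly behind mm10), with 10000 bases added on each side; this is called the extended region here. The 5 genes, of 14712 protein-coding genes tested, held 8236 of 30729668 listed positions and 224 of 1609826 tested windows of 1000 bases. At 2 of them, Hnf4a and Prox1, mean methylation of the gene body rose in NASH, at Hnf4a unevenly along the gene. Both gene body calls were lost when every value of exactly 0 was left out. At Foxa1 methylation fell in the CpG-sparse positions of the extended region and in the flank before the gene, which share positions. In the Foxa1 gene span alone the CpG-sparse positions did not fall. At Foxa2 and Cebpb no region passed the test.

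All 8 libraries were made from liver DNA of male C57BL/6J mice of wild-type genotype, bought at 8 weeks of age. The 4 NASH libraries were taken to come from mice given a high-fat, high-cholesterol and high-fructose diet, and the 4 ND libraries from mice given the normal diet, each over a feeding period of 28 weeks. Libraries were grouped by their titles and the column names; the ND columns stand for the libraries titled WT. In the labels the treatment field contradicts the titles, with NASH given for libraries titled WT and the reverse, and were it right, each direction below would turn. Separate mice per library are not stated, so p-values measure the spread between libraries, which may be technical. Whole liver holds several cell types, and a change of methylation per cell and a change in the mix of cells cannot be told apart.

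HNF4A is a nuclear receptor that activates a large share of the genes of the differentiated hepatocyte, and it is read from a promoter P1 used in adult liver and a distal promoter P2 used in the embryo and in other tissues. FOXA1 and FOXA2 are forkhead pioneer factors that open chromatin at liver enhancers. PROX1 is a homeobox factor needed for the hepatoblast and for lymphatic endothelium, and C/EBPβ is a leucine zipper factor of the acute phase response and of liver regeneration. Methyl groups on CpG cytosines are usually missing from CpG-dense start sites and from active enhancers, and present over most of the remaining genome. The files hold methylation and no RNA, so whether these genes were expressed was not measured.

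Start sites in the Hnf4a region hold few CpGs, while the starts of Foxa1 and Prox1 are crowded with them. The 5 start-site sequences below show this. They are RefSeq sequences of GRCm38.p6, 5′ to 3′ on the strand of the gene, with each CpG in capitals, and the start site lies near the 3′ end. Hnf4aos is a long noncoding RNA that starts inside Hnf4a on the other strand.
Hnf4a P1, chr2:163546905-163547204, plus strand: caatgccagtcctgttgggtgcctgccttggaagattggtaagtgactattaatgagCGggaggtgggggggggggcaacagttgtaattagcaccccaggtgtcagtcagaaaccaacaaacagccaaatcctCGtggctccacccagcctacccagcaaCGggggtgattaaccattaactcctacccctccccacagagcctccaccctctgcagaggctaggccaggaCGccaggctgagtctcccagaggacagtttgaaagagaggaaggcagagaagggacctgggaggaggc
Hnf4a P2, chr2:163506607-163506906, plus strand: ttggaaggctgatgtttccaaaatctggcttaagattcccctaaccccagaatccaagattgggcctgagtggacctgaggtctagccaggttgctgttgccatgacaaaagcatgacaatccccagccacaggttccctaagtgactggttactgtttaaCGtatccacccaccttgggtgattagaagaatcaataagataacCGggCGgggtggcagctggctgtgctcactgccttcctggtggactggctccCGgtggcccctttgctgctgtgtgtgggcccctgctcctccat
Hnf4aos, chr2:163541672-163541971, minus strand: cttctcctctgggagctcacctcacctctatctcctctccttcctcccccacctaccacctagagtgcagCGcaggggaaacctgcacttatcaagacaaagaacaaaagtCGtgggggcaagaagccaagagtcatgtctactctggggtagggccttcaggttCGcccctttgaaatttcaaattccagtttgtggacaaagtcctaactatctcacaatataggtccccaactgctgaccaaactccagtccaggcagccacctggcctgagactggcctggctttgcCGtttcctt
Foxa1, chr12:57546062-57546361, minus strand: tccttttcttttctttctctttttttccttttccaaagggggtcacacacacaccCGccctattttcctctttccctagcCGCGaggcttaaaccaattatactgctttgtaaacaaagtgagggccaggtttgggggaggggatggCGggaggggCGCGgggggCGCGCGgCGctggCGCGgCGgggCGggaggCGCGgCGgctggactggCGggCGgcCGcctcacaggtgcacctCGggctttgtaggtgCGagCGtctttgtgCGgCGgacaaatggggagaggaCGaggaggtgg
Prox1, chr1:190170778-190171077, minus strand: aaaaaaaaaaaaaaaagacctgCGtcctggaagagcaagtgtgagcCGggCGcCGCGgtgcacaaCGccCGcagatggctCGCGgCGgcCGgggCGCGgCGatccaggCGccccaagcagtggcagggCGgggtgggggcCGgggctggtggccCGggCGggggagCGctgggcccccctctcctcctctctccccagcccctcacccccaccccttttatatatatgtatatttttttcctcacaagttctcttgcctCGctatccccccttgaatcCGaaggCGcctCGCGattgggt
Each of the first 3 sequences holds 4 CpGs, the Foxa1 sequence holds 26 and the Prox1 sequence 25.

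Values are percent methylation as deposited, means over positions are unweighted, errors are SDs over n = 4 libraries per group, and a difference is the NASH mean minus the ND mean, in percentage points. Read depth is unknown, so no counting interval can be given. Adjusted p-values are from limma over all features of a kind, with Benjamini-Hochberg adjustment and a threshold of 0.05. A position is called CpG-dense where at least 20 positions are listed in the 200 bases around it, and CpG-sparse otherwise. Over all listed positions the libraries had means between 71.0% and 72.3%, and exact zeros made up 12.3% to 13.1% of the values. The files do not say whether an exact 0 is an unmethylated position or one without reads, so results that rest on zeros are marked below. Over the whole table no library stood apart, and the correlation of window means between any pair of libraries lay between 0.916 and 0.937.

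Hnf4a (chromosome 2, 163506811 to 163572907, plus strand) had 2300 positions, of which 98 were CpG-dense. Its extended region also holds parts of Hnf4aos and of R3hdml, and the small nuclear RNA gene Gm25881. Mean methylation of the extended region was 61.3%, 59.5%, 62.0% and 61.3% in the NASH libraries and 55.1%, 54.8%, 54.5% and 53.6% in the ND libraries. Every NASH library lay above every ND library. The difference was 6.56 points (SE 0.607, limma adjusted p = 0.00079), and 6.03% of 14712 extended regions were called higher in NASH. In the gene body alone the means were 58.9% ± 1.06 (n = 4) and 51.1% ± 0.785 (n = 4), a rise of 7.79 points (adjusted p = 0.00319), where 5.54% of gene bodies were called higher.

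Positions at exactly 0 were fewer at Hnf4a in NASH. They made up 13.7% to 14.7% of the positions in NASH and 17.3% to 23.3% in ND libraries. Positions above 0 had means of 69.7% to 72.7% in NASH and 66.6% to 69.9% in ND, ranges that overlap. With every zero left out, the difference of the extended region was 2.83 points and missed the threshold (adjusted p = 0.125). With only those zeros left out whose neighbours were highly methylated, it was 6.91 points (adjusted p = 0.0007).

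**Figure D1:**
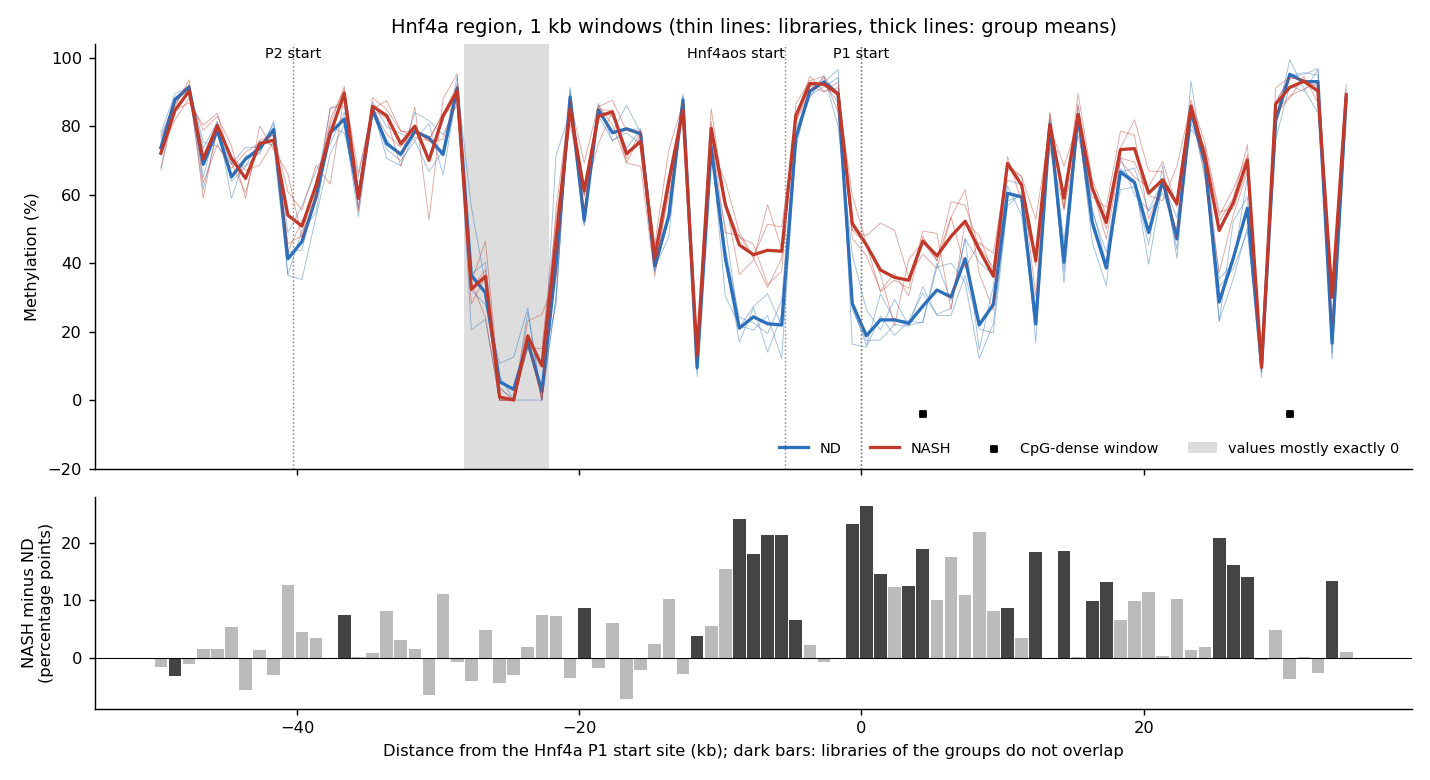
Methylation of the Hnf4a extended region in windows of 1000 bases (top, %, thin lines are the 8 libraries and thick lines the group means) and the NASH minus ND difference (bottom, percentage points), against the distance from the P1 start site in kb. Dark bars are windows where the libraries of the 2 groups did not overlap; NASH lay above ND in 22 of 85 windows and below it in 1, and the raised windows gather from before the Hnf4aos start to the end of the gene.

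Along the Hnf4a region the difference was uneven. In 22 of 85 windows (25.9%) every NASH library lay above every ND library, and in 1 window every NASH library lay below, where 2.78% and 3.71% of all 1609826 windows did so. At the 10 windows before the P2 end of the gene 0 were raised, while 19 of 66 windows of the gene body and 3 of 9 windows beyond its end were. By limma 0 of the 224 member windows passed the threshold, and 4 of all windows did (0.000248%). At an unadjusted p under 0.05, 33 Hnf4a windows were higher and 0 lower, and 60 and 8 over all members, where 4.33% and 6.58% of all windows were higher and lower.

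Adjacent raised windows formed stretches, which were picked after their values were seen and carry no test. The longest ran from 163538001 to 163543000, over the start of Hnf4aos, with 53.3% ± 2.64 in NASH and 36.0% ± 2.53 in ND (n = 4 each). The stretch from 163546001 to 163549000 holds the P1 start. Its 96 positions were at 44.3%, 41.6%, 47.0% and 48.9% in NASH and at 28.6%, 20.3%, 16.9% and 19.1% in ND. Further stretches lay at 163550001 to 163552000, 163563001 to 163565000 and 163572001 to 163575000, with differences of 16.4, 11.8 and 16.6 points. The last one reaches over the end of the gene, and the downstream flank as a whole rose by 4.35 points, from 59.1% ± 1.29 to 63.5% ± 1.11 (n = 4 each, limma adjusted p = 0.0426), where 2.42% of flanks were called higher. This call for the downstream flank was lost without NASH library 1, 3 or 4 or ND library 1, 2 or 4 (adjusted p between 0.0457 and 0.118 over the 8 omissions). It was also lost with every zero left out (4.18 points, adjusted p = 0.101).

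A low stretch inside Hnf4a did not look like the others. In 6 windows from 163519001 to 163525000, 63.5% to 98.4% of the values were exactly 0, and 84.2% to 100% of the other values were exactly 50 or 100. Levels there take few distinct values. Without these 144 positions the difference of the extended region was 6.98 points (adjusted p = 0.000989).

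The P1 start region, from 1000 bases before to 500 bases after the start site at 163547155, had 56 positions. Its means were 47.4%, 45.4%, 47.2% and 47.2% in the NASH libraries and 30.7%, 21.5%, 16.3% and 18.9% in the ND libraries. Every NASH library lay above every ND library. The rise of 24.9 points (SE 2.99) passed the threshold (limma adjusted p = 0.0428), as did 18 of 14239 start regions in that direction (0.126%). The call is at the edge: it was kept without ND library 1 and lost without any other single library (23.1 to 27.9 points, adjusted p between 0.0206 and 0.122), and it was lost with every zero left out (17.8 points, adjusted p = 0.157) and on a logit scale (adjusted p = 0.0572).

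The P2 start region at 163506857 was at 57.0% ± 6.71 in NASH and 47.8% ± 6.34 in ND (n = 4 each). Its difference of 9.26 points did not pass the threshold (adjusted p = 0.469), and the groups overlapped. P1 minus P2 was -4.37, -5.47, -14.3 and -16.9 points in the NASH libraries and -17.8, -24.4, -39.7 and -21.9 points in the ND libraries. P1 was below P2 in every library, and the gap was narrower in every NASH library, by 15.7 points on average (exact two-sided permutation p = 0.0286, the smallest that 70 assignments allow, in a test chosen after the data were seen).

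**Figure D2:**
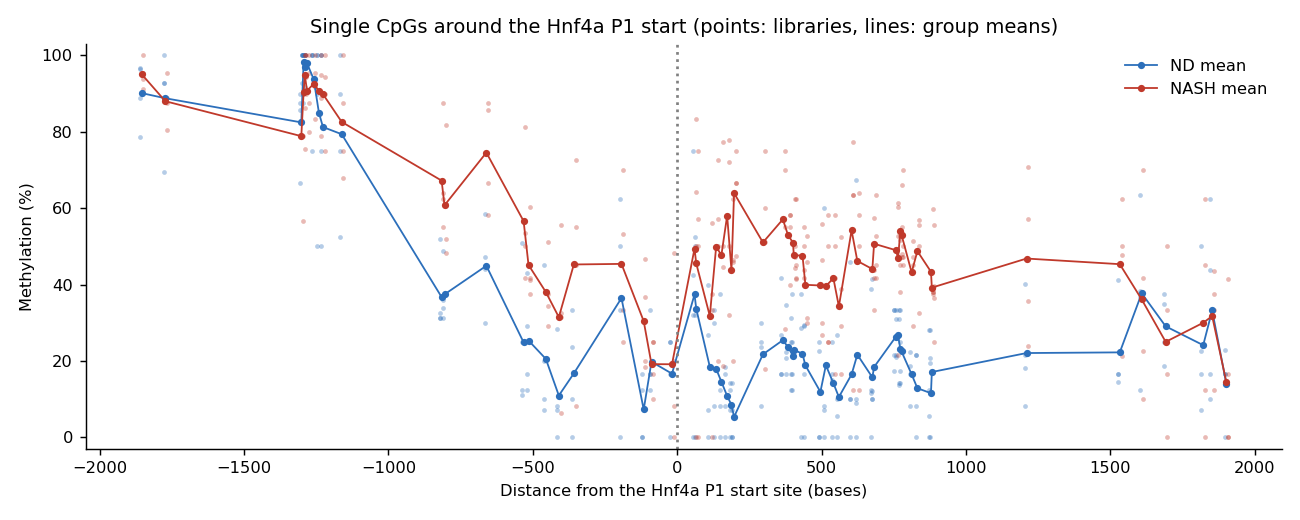
Methylation (%) of single CpGs against the distance from the Hnf4a P1 start site (bases); points are libraries and lines connect group means. Within 1000 bases of the start, the NASH mean lay above the ND mean at 42 of 43 CpGs, while the CpGs farther upstream were high in both groups.

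Single CpGs placed the rise on both sides of the P1 start. Before the start the 24 positions were at 44.4% ± 5.66 in NASH and 24.8% ± 7.45 in ND, and after it the 32 positions were at 48.6% ± 3.89 and 19.7% ± 5.47 (n = 4 each). Of the 43 CpGs within 1000 bases of the start, 42 had a higher mean in NASH, with a median difference of 27.5 points, and at 18 the libraries did not overlap. These CpGs lie inside the stretch from 163546001 to 163549000 picked above, so the counts are no separate evidence. The share over all CpGs was not taken. The printed P1 sequence showed less of the difference around the start. Its 4 CpGs had a mean of 28.5% ± 6.68 in NASH and 20.1% ± 5.60 in ND (n = 4 each), with overlapping groups, and 1 of the 4, the CpG at base -116 from the start, separated them, at 18.3%, 20%, 46.7% and 36.7% against 0%, 16.7%, 0% and 12.5%. The CpG nearest the start, at base -18, was at 19.1% and 16.7%.

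The start of Hnf4aos showed a larger shift at its printed CpGs. Their mean was 44.9%, 51.5%, 55.1% and 47.5% in the NASH libraries and 22.5%, 30.5%, 13.3% and 1.79% in the ND libraries. The groups did not overlap, and 3 of the 4 CpGs, those at bases -139, -85 and 42 from the start, separated the groups as well. This start lies inside the longest stretch picked above, and here too the share over all CpGs was not taken. Over the 32 positions of the wider start region the means were 56.1% ± 2.66 and 34.7% ± 4.51 (n = 4 each). That rise of 21.4 points stood beside 24.9 points at the P1 start region. The Hnf4aos start was not tested. At the 4 printed P2 CpGs the NASH libraries were spread from 14.8% to 64.7% and overlapped the ND libraries, at 8.33% to 32.5%.

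**Figure D3:**
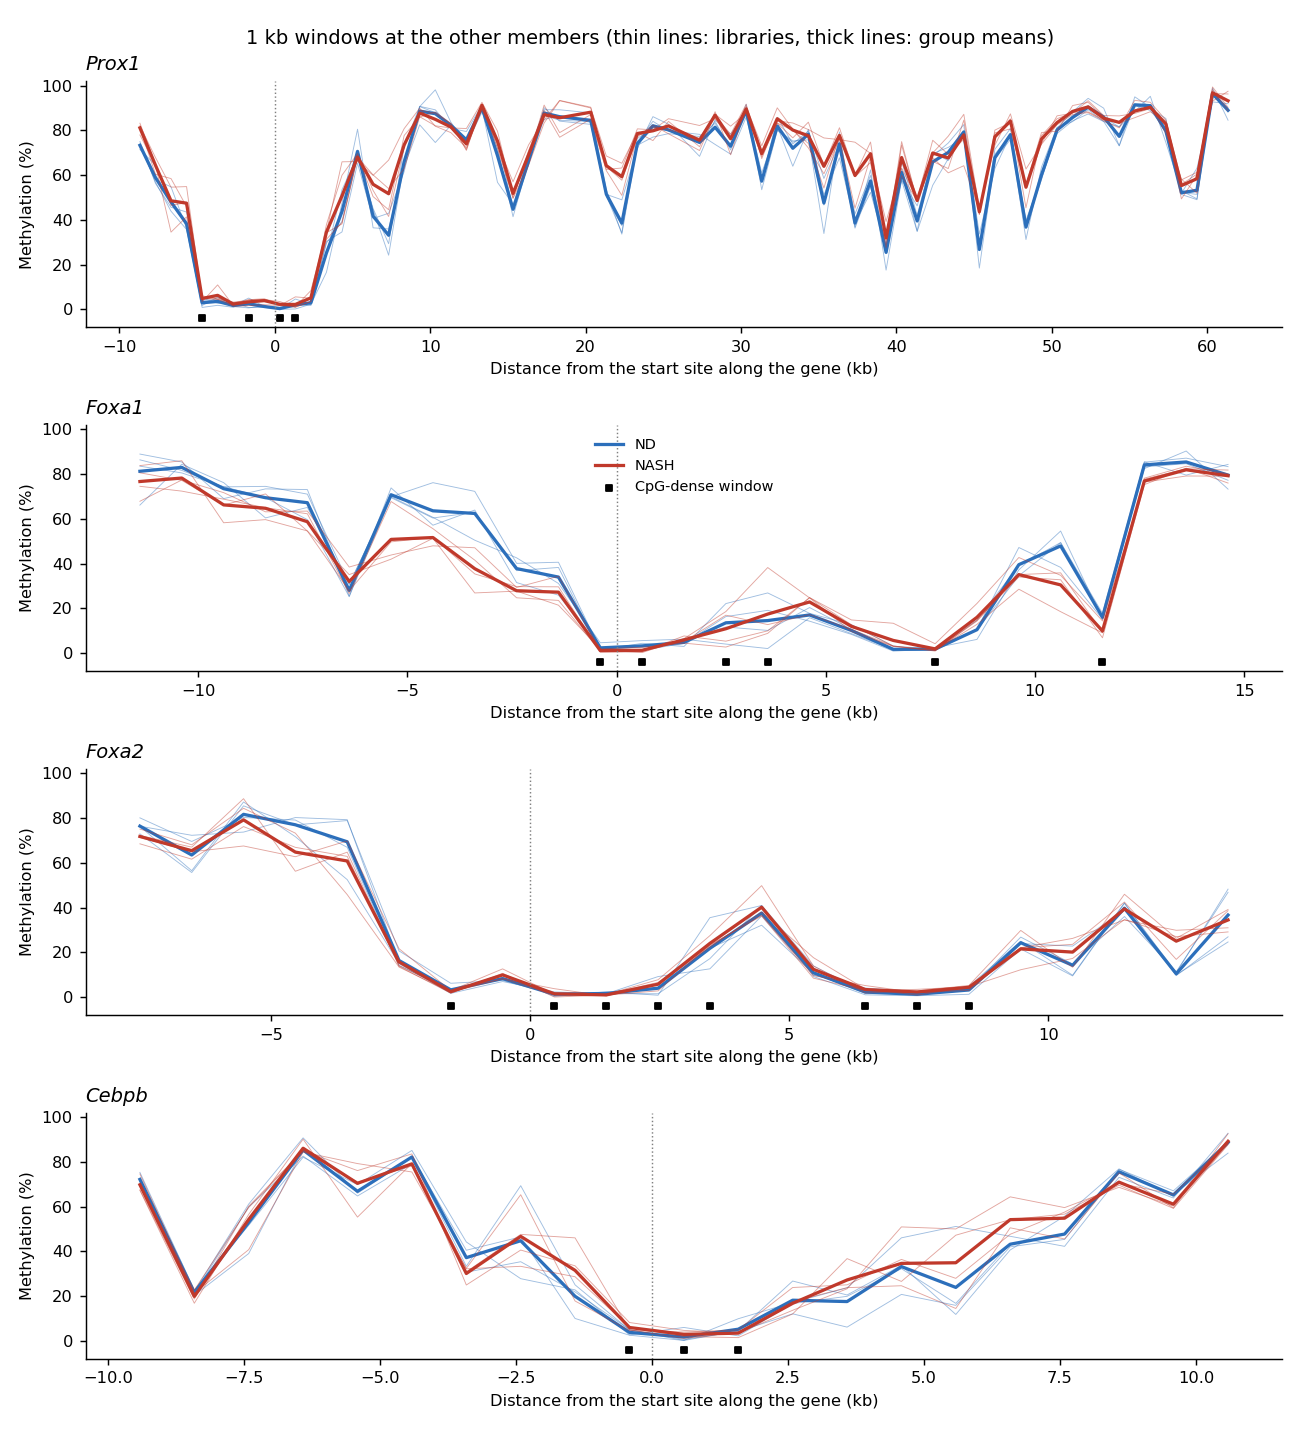
Methylation (%) in windows of 1000 bases at Prox1, Foxa1, Foxa2 and Cebpb against the distance from the start site along the gene (kb); thin lines are the 8 libraries, thick lines the group means and black squares mark CpG-dense windows. All 4 genes are near 0% around the start; NASH lies above ND in windows of the Prox1 body and below it in the Foxa1 upstream flank.

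Prox1 (chromosome 1, 190118035 to 190170827, minus strand) had 2304 positions, 457 of them CpG-dense. The noncoding RNA gene Prox1os overlaps its start. The extended region was at 54.8%, 54.1%, 54.9% and 55.5% in the NASH libraries and at 51.4%, 50.4%, 50.8% and 50.5% in the ND libraries. The groups did not overlap, and the rise of 4.08 points (SE 0.449) passed the threshold (adjusted p = 0.00131). The gene body rose from 57.7% ± 0.591 to 62.8% ± 0.703 (n = 4 each, adjusted p = 0.00319). Zeros made up 25.8% to 28.0% of the positions in NASH and 30.1% to 31.5% in ND, and positions above 0 had means of 73.8% to 76.1% in NASH and 73.4% to 73.5% in ND, without overlap. With every zero left out the difference of the extended region was 1.56 points and missed the threshold (adjusted p = 0.241).

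The raised windows of Prox1 were spread along the gene body. NASH libraries lay above ND libraries in 19 of 69 windows (27.5%) and below in 0, where 2.78% and 3.71% of all windows did so, and 17 of those 19 were in the body. The window with the smallest p, 190121001 to 190122000, was at 76.1% ± 2.61 in NASH and 60.1% ± 2.47 in ND (n = 4 each, limma adjusted p = 0.11). Runs of raised windows were 2 to 3 windows long, and the one at 190147001 to 190150000 went from 53.2% ± 1.78 to 66.3% ± 3.26 (n = 4 each). Such runs were picked after their values were seen and carry no test.

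The start of Prox1 lay in a broad unmethylated stretch that reached over 8 windows in both group means. Within it the levels were low but not equal. In the 2 windows from 190170001 to 190172000 the NASH libraries were at 3.72%, 2.38%, 1.8% and 2.82% and the ND libraries at 1.02%, 0.400%, 0.515% and 0.337%. These 2 windows were picked for their lack of overlap and carry no test as a stretch. The start region at 190170827 (2.58% ± 1.56 against 0.560% ± 0.371, n = 4 each) had overlapping groups and did not pass the threshold (adjusted p = 0.344), nor did the second start at 190169515. In the printed Prox1 sequence the ND libraries were at 0% except for 1 at 0.333%, and the NASH libraries at 2.90%, 2.5%, 0.5% and 7.17%. These NASH means rest on a few CpGs with values up to 50%, while most CpGs were at 0%. No single CpG of the sequence separated the groups. The upstream flank rose by 2.25 points, from 18.0% ± 0.625 to 20.3% ± 0.628 (n = 4 each, adjusted p = 0.0297), where 2.45% of flanks were called higher. That upstream call was lost without NASH library 1 or 4 or ND library 2, 3 or 4, and with every zero left out the difference turned to -3.38 points (adjusted p = 0.363).

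Foxa1 (chromosome 12, 57540628 to 57548029, minus strand) had 1460 positions, 665 of them CpG-dense. Its upstream flank lies inside Ttc6, a protein-coding gene on 57546704 to 57737911. The whole extended region was at 24.8%, 21.1%, 22.1% and 19.5% in the NASH libraries and at 25.3%, 23.9%, 24.9% and 29.6% in the ND libraries, with overlapping groups. The difference of -4.01 points missed the threshold (adjusted p = 0.107), and 3.89% of extended regions were called lower. It passed with every zero left out (-11.2 points, adjusted p = 0.00393) and as a mean of window means (-4.54 points, adjusted p = 0.0245).

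The calls at Foxa1 were in the CpG-sparse positions and in the upstream flank, which share positions. The 795 CpG-sparse positions were at 34.1%, 31.2%, 32.6% and 28.8% in NASH and at 36.4%, 35.8%, 38.1% and 40.8% in ND. They fell by 6.09 points (SE 1.27, adjusted p = 0.011), where 7.03% of genes were called lower in these positions. In the gene span alone the CpG-sparse positions differed by 0.488 points in the other direction (adjusted p = 0.89). The upstream flank was at 47.8%, 48.0%, 45.9% and 43.0% in NASH and at 55.8%, 55.6%, 58.1% and 65.2% in ND. No NASH library reached the lowest ND library, and the fall of 12.5 points (SE 2.14, adjusted p = 0.0173) was the lowest difference of all 14716 upstream flanks, of which 1.35% were called lower. Without NASH library 4 that call was lost (-11.4 points, adjusted p = 0.0542). The downstream flank was at 24.6% ± 2.95 in NASH and 28.0% ± 0.786 in ND (n = 4 each), with overlapping groups, and missed the threshold (-3.48 points, limma adjusted p = 0.181). It passed with every zero left out (-10.5 points, adjusted p = 0.00568) and without NASH library 3 (-4.81 points, adjusted p = 0.0262).

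Window by window, 7 of 27 Foxa1 windows had every NASH library below every ND library (25.9%) and 0 had the reverse, where 3.71% and 2.78% of all windows did so. They formed 2 stretches, which were picked after their values were seen and carry no test. The upstream one, 57548001 to 57552000, was at 42.4%, 43.9%, 40.7% and 36.8% in NASH and 53.5%, 53.3%, 55.5% and 64.8% in ND. It holds the window with the smallest p, 57549001 to 57550000, at 37.8% ± 8.66 and 62.4% ± 9.0 (n = 4 each, limma adjusted p = 0.177). The downstream stretch, 57533001 to 57536000, was at 29.6% ± 3.94 and 40.7% ± 3.19 (n = 4 each). The start itself was unmethylated in both groups: the window at 57546001 to 57547000 had 1.16% ± 0.640 and 2.36% ± 1.63 (n = 4 each), and the 26 printed CpGs had means of 0.885% ± 0.773 and 2.26% ± 1.70 (n = 4 each).

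Foxa2 (chromosome 2, 148042877 to 148046969, minus strand) had 1110 positions, 626 of them CpG-dense, and was the least methylated member. Its extended region was at 14.7%, 12.8%, 13.6% and 13.3% in NASH and at 13.1%, 13.3%, 13.4% and 13.3% in ND, and the groups overlapped (0.321 points, adjusted p = 0.657). Its 3 start regions lay between 0.669% and 5.20% in both groups. Of its 22 windows, 1 separated the groups (4.55%), close to the 2.78% of all windows that did so in this direction. It lay at 148034001 to 148035000 beyond the gene end, inside the noncoding gene 9030622O22Rik, with 25.0% ± 5.65 in NASH and 10.4% ± 0.778 in ND (n = 4 each, limma adjusted p = 0.114).

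Cebpb (chromosome 2, 167688915 to 167690432, plus strand) had 1062 positions, 536 of them CpG-dense. Its extended region was at 24.7%, 23.4%, 23.7% and 25.7% in NASH and 24.01%, 21.2%, 23.7% and 22.4% in ND. The groups overlapped, and the difference of 1.54 points missed the threshold (adjusted p = 0.22). The start region was at 4.03% ± 0.912 and 2.85% ± 0.994 (n = 4 each, adjusted p = 0.546). The window with the smallest p, 167695001 to 167696000 inside the noncoding gene A530013C23Rik, was at 54.2% ± 7.30 and 43.2% ± 2.62 (n = 4 each, limma adjusted p = 0.342), and it was the only 1 of 21 windows without overlap (4.76%, where 2.78% of all windows were raised in this way).

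**Figure D4:**
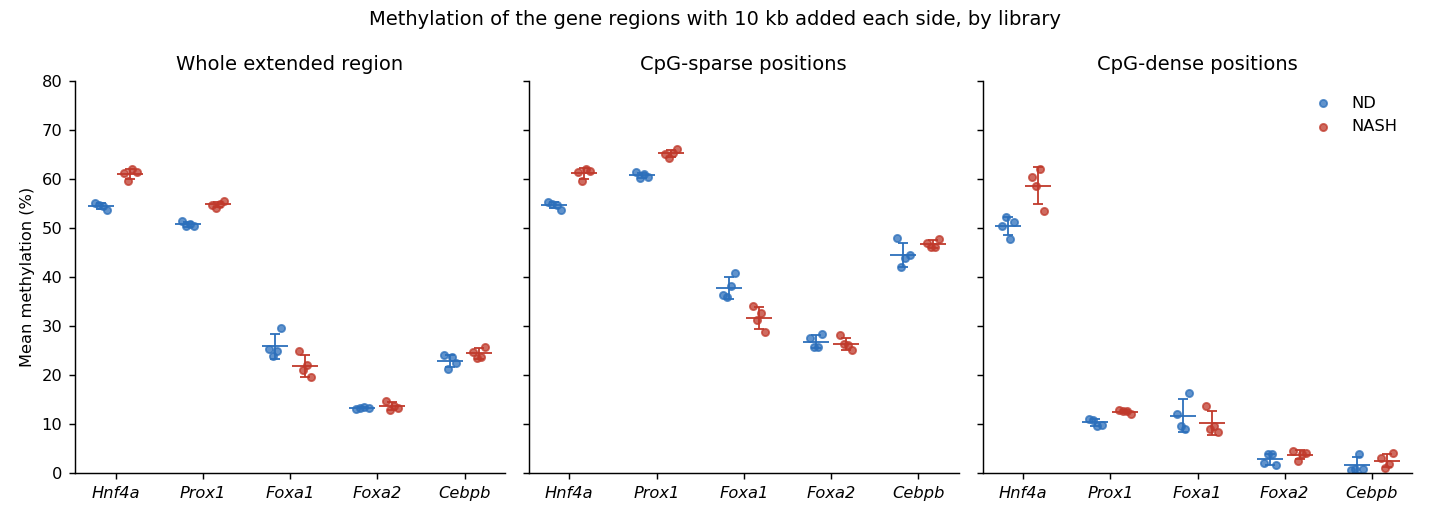
Mean methylation (%) of the extended region of each gene, over all, CpG-sparse and CpG-dense positions; points are libraries, bars the group mean and SD (n = 4 each). Hnf4a and Prox1 separate upward in all 3 panels and Foxa1 separates downward in the CpG-sparse panel, while Foxa2 and Cebpb overlap.

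The CpG-sparse positions carried the calls. Hnf4a rose by 6.49 points there (54.7% ± 0.670 to 61.2% ± 1.09, n = 4 each, adjusted p = 0.000643) and Prox1 by 4.53 points (60.7% ± 0.514 to 65.3% ± 0.757, n = 4 each, adjusted p = 0.00147), where 8.38% of genes were called higher. The CpG-sparse part of Foxa2 (-0.405 points) and Cebpb (2.17 points) missed the threshold (adjusted p = 0.771 and 0.22). Leaving out every zero ended the call at both Hnf4a (2.76 points, adjusted p = 0.0883) and Prox1 (1.91 points, adjusted p = 0.107). It left Foxa1 past the threshold, at -10.1 points (adjusted p = 0.00198).

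In the CpG-dense positions limma called 0.0% of 12620 genes (796 had an unadjusted p under 0.05), so 0 members passed. Hnf4a stood apart in level, since its 98 CpG-dense positions were methylated: 60.4%, 58.6%, 62.0% and 53.4% in NASH and 50.4%, 52.2%, 47.8% and 51.2% in ND, without overlap (8.18 points, adjusted p = 0.47). Prox1 was at 12.5% ± 0.344 and 10.3% ± 0.693 (n = 4 each), also without overlap (adjusted p = 0.316). Foxa1, Foxa2 and Cebpb had CpG-dense means of 10.2%, 3.70% and 2.47% in NASH and 11.7%, 2.81% and 1.54% in ND, with overlapping groups. Whether the difference was unequal between CpG-dense and CpG-sparse positions was tested directly, and it was called at 0.254% of 12620 genes and at 0 members (smallest adjusted p = 0.222, Foxa1; limma unadjusted p = 0.0111 there and 0.0221 at Prox1).

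The windows of the members were also grouped by their mean over all 8 libraries. Under 20%, 4 of 41 (9.76%) had every NASH library above every ND library, where 2.64% of all windows at that level did. Among windows at 20% to 40%, 14 of 38 (36.8%) did, where 15.9% of all windows did. Among windows at 40% to 60%, 13 of 35 (37.1%) did, where 10.3% of all windows did. At 60% to 80% it was 10 of 60 (16.7%), where 2.95% of all windows did, and at 80% or more it was 2 of 50 (4%), where 1.23% of all windows did. Hnf4a gave 12 of the 14 at 20% to 40%, with a median difference of 18.1 points over its 19 windows there. Foxa1 went the other way, and both of its windows at 40% to 60% were lower without overlap, where 2.77% of all windows at that level were. Both lie in the upstream Foxa1 stretch picked above, so they are no separate evidence.

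The members were compared with each other on the per-library differences of their extended regions, by exact two-sided permutation tests over 70 assignments. Of 10 pairs, 9 had an adjusted p of 0.0318, which comes from the smallest p that the design allows (0.0286). The pairs reuse the same libraries and regions, and the share over all pairs of genes was not taken. The Hnf4a change was larger than that of Prox1 by 2.48 points and than that of Foxa1 by 10.6 points. The difference at Foxa1 minus that at Prox1 was -8.09 points. Foxa2 and Cebpb did not differ beyond the spread (-1.22 points, adjusted p = 0.257).

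Runs of low windows rest on exact zeros, which made up 66.3% to 98.1% of the values in the CpG-dense parts of Foxa1, Foxa2, Prox1 and Cebpb. The longest run of windows under 20% in the ND group mean was 10 windows at Foxa1, 8 at Prox1, 6 at Foxa2, 6 at Cebpb and 4 at Hnf4a, where the median over 14712 genes was 2. In the NASH group mean the runs were 5, 8, 6, 4 and 4 windows. At Foxa1 the libraries overlapped, since 1 NASH library and 2 ND libraries had 10 windows and the other libraries 4 or 5. The Hnf4a run lay in the stretch of zeros described above, not at a start.

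Short motifs were searched on both strands in the 300-base RefSeq start sequences, of which 10 were searched for the members and Hnf4aos, and overlap between motifs was not removed. The forkhead core TGTTTAC was in the printed Foxa1 sequence and in 3.65% of all 32851 sequences. The TATA box letters TATAAA were in sequences of Cebpb, Foxa2 and Prox1 and in 13.6% of all. The letters of CAAAGTCCA, an HNF4A motif, and of the C/EBP motif TTGCGCAA were in 0 member sequences and in 0.475% and 0.183% of all.

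Other transcription factors of hepatocytes were described in the same way, from a list chosen with earlier results of these data known. Of 36 factors 25 were tested, and the rest were not analysed here. Their extended regions were called higher at 11 and lower at 1, with a median difference of 1.15 points, where the background was 6.03% higher and 3.89% lower. The largest rises were at Nr1i3, the nuclear receptor CAR (40% ± 0.870 to 49.1% ± 0.830), at Rxra, the shared partner of many nuclear receptors (35.7% ± 0.588 to 43.3% ± 1.22), and at Ppara, the receptor of fatty acid oxidation (48.1% ± 0.614 to 54.7% ± 2.01, n = 4 each). Nr1h4, the bile acid receptor, rose by 5.33 points and Nr5a2 by 4.03 points. Nr0b2, Srebf1 and Nr1i2 rose by 3.85, 3.47 and 3.23 points. Klf6 fell by 3.14 points. Each of these passed limma's threshold, with adjusted p-values between 0.000359 and 0.0314.

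**Figure D5:**
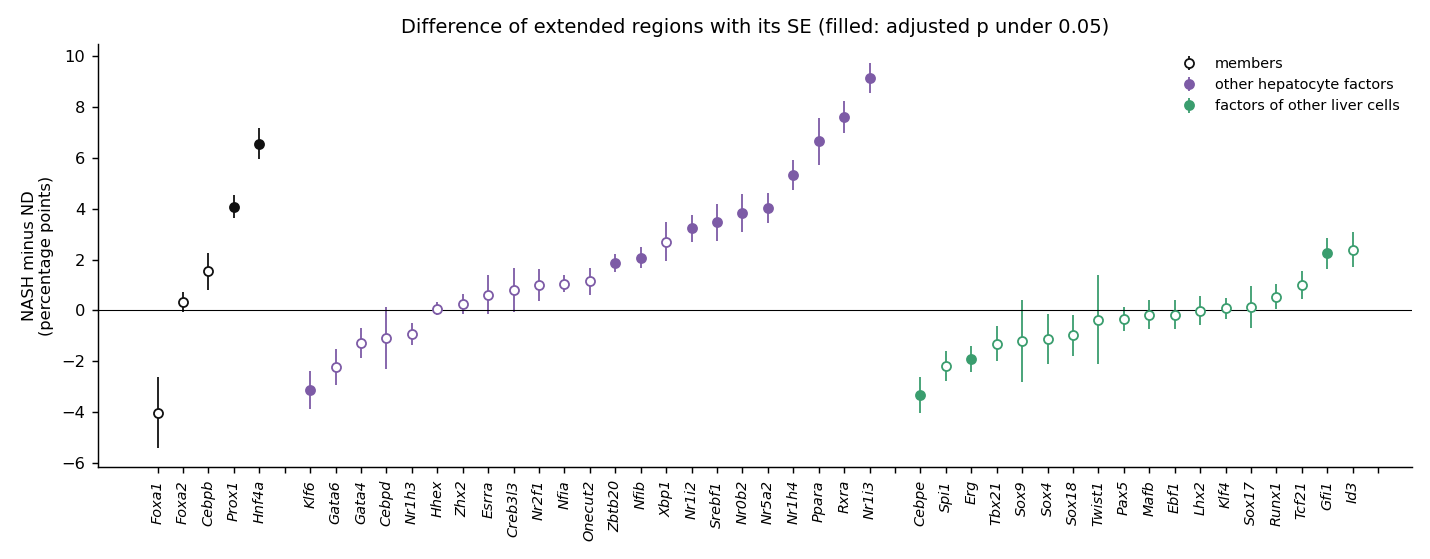
NASH minus ND difference of the extended region (percentage points) with its SE for the 5 members and for the factors of both lists that are reported here; filled points passed the threshold. Hnf4a, at 6.56 points, stands among the highest hepatocyte factors, below Nr1i3, Rxra and Ppara, and 3 of the factors of other cells passed, 1 of them above 0.

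Lineage factors of other liver cells were described beside them, from a list chosen in the same way. Of 25 factors 19 were tested, 1 was higher and 2 were lower, with a median difference of -0.317 points. The background was again 6.03% higher and 3.89% lower. Gfi1, a repressor of myeloid development, rose from 28.0% ± 1.01 to 30.2% ± 0.818 (n = 4 each, adjusted p = 0.0448). Cebpe, a granulocyte factor, fell from 70.2% ± 1.36 to 66.9% ± 0.784 (n = 4 each, adjusted p = 0.0209), and Erg, an endothelial and blood factor, from 76.9% ± 0.897 to 74.96% ± 0.510 (n = 4 each, adjusted p = 0.0484).

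Marker genes of liver cell types moved beside these results, on lists chosen with earlier results of these data known. Over all 14712 extended regions 6.03% were called higher and 3.89% lower. All 10 tested of 13 hepatocyte markers were called higher, and the median over their extended regions was 58.4% to 63.2% in the NASH libraries and 51.0% to 53.2% in the ND libraries. Of 11 tested neutrophil markers 4 were called lower. The median over the 11 was 69.5% to 71.9% in NASH and 71.4% to 72.5% in ND, ranges that overlap. Of 11 tested stellate cell and matrix markers 3 were lower, with medians of 69.6% to 72.2% and 72.7% to 73.9%. The 10 macrophage and 7 endothelial markers had 0 calls, the 5 lymphocyte markers 1 in each direction, and the 7 cholangiocyte markers 1 lower. That cholangiocyte call is Spp1, which is also 1 of the 3 lower stellate cell and matrix markers. The part of all these markers in the differences at Hnf4a, Prox1 and Foxa1 was not tested.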

How the data were processed

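Whole-genome bisulfite sequencing of mouse liver DNA gave 8 libraries, 4 titled NASH and 4 titled WT (ND columns). The authors deposited percent methylation per CpG cytosine, each strand on its own row, without read counts; FastQC and mm10 are named in the submitters' processing notes, and the sources used here name no aligner or caller. The table was read for 15 chromosomes (1 to 5 and 10 to 19; chromosome 5 in part), and 85 contigs and 1 incomplete line were not used. Other chromosomes were not analysed here. At 100% of 153303 listed positions in RefSeq start sequences a C or G stood 1 base before the listed position, against 86.1% at it, so 1 was subtracted and coordinates here count from 1.

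Unweighted means per region and library were fitted with limma 3.58.1 (R 4.3.3, mean-dependent prior variance) over all regions with at least 6 positions, with Benjamini-Hochberg adjustment; single values were compared by exact two-sided permutation over 70 assignments. Start sites and strands came from RefSeq start sequences; of 15265 genes, 12015 had a strand, and the others were taken as plus. Windows of 1000 bases are CpG-dense where at least 50% of their positions are. Exons and introns were not annotated. Quasi-binomial models were not run, since no read counts are listed. The members, the lists and the tests were chosen with earlier results of these data known. The windows named are, per gene, those over start sites and the one with the smallest p; factors on the lists were named when called, up to 10 and 6 by size; a few factors counted in the lists are not reported here. Same-numbered libraries did not deviate together (correlations from -0.00535 to 0.02), so numbers did not pair them. Alternatives were other zero handling, scales, density limits, extensions and grids, and each library left out.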

Additional observations from a re-analysis of the deposited data

Results flagged for a closer look

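In groups of 4 libraries, 6 of 88 groups had 1 library far from the other 3 by Dixon's criterion, where chance marks about 1 in 20. The CpG-dense minus CpG-sparse difference of Hnf4a was -8.30 points in NASH library 4, with the other NASH libraries at -0.967 to 0.0255. The P1 start region of Hnf4a was lowest in NASH library 2, at 45.35%, with the others at 47.2% to 47.4%, a gap of a few points beside a group difference of 24.9 points. The upstream flank of Hnf4a was highest in ND library 3, at 75.9% against 75.5% in the others.

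At Foxa2 the upstream flank was lowest in ND library 2, at 31.25%, where the others had 34.2% to 34.7%. Cebpb was marked through ND library 3, whose CpG-dense positions were at 3.95% with the others at 0.574% to 0.812%, and whose gene body was at 4.75% with the others at 0.272% to 0.730%. The CpG-sparse part of Cebpb, which missed the threshold, passed without ND library 1 (3.28 points, adjusted p = 0.0354), a library not marked here.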

How the results depend on the processing

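Of the settings tried, leaving out every zero moved the most. It ended calls at the extended region, body and CpG-sparse part of Hnf4a (2.83, 3.42 and 2.76 points) and of Prox1 (1.56, 2.73 and 1.91 points), at the Hnf4a downstream flank (4.18 points) and at P1 (17.8 points). It turned the Prox1 upstream flank (-3.38 points), gave a call to the Foxa1 extended region (-11.2 points) and downstream flank (-10.5 points) and moved Foxa2 to -4.93 and Cebpb to -0.889 points. It left 30 member windows higher and 15 lower at an unadjusted p under 0.05, instead of 60 and 8. It also removes positions that are truly unmethylated. Foxa1 was called as a mean of window means (-4.54 points). With a replicate block, though the numbers do not pair the libraries, the calls were lost at the upstream flanks of Prox1 (2.25 points, adjusted p = 0.0577) and Foxa1 (-12.5 points, adjusted p = 0.083), the Hnf4a downstream flank (4.35 points, adjusted p = 0.093) and P1 (24.9 points, adjusted p = 0.268); it changed no other call. On a logit scale P1 differed by 1.14 (adjusted p = 0.0572). In the gene span alone the Foxa1 CpG-sparse part was at 0.488 points and 0 windows were lower; with 5 kb added it was 4 windows, and on a shifted grid 13.

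Leaving out 1 library at a time gave 6.23 to 7.07 points for the Hnf4a region, 3.86 to 4.31 for Prox1 and -6.91 to -5.10 for the Foxa1 CpG-sparse part, with no call lost. It gave -0.0518 to 0.596 points for Foxa2, 2.05 to 2.54 for the Prox1 upstream flank, -13.5 to -10.3 for the Foxa1 upstream flank, 3.95 to 4.96 for the Hnf4a downstream flank and 23.1 to 27.9 for P1. The windows called were 0 to 1, those higher 52 to 59 and those lower 9 to 16, the last without ND library 1. A logit scale and a minimum of 10 positions were not run for the CpG-dense minus CpG-sparse difference. The unknown read depth, levels that rest on few values and 4 libraries a group limit all of these.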
